A study of Mus musculus with 6 samples.

Results

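The transcripts of 9 sarcomere genes, Ttn, Mybpc3, Actn2, Myom1, Myom2, Nebl, Ldb3, Xirp1 and Xirp2, were compared across RNA that came down with Cnot3, RNA that came down with a control antibody and RNA of the lysate from mouse heart. They were chosen by symbol out of the 24421 gene symbols in the deposited table, and 9 of 9 had a row. Each of them passed the filter on low values, which left 13010 genes in the tests. The material was whole heart of C57BL6/J mice aged 4 weeks, and the labels name no allele, transgene or treatment for any group. Cnot3 RIP (2 libraries) was RNA recovered by immunoprecipitation with an antibody against Cnot3, a subunit of the CCR4-NOT complex. Control IgG RIP (2 libraries) was RNA recovered with a control antibody, and Input (2 libraries) was RNA of the heart without an immunoprecipitation. In RNA immunoprecipitation (RIP), transcripts that come down with a protein are sequenced and set against those that come down without it, so control IgG RIP measures the background of the pull-down. The labels do not say whether the 2 replicates of a group were separate animals, so p-values below measure the spread between libraries, which may be technical.

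The sarcomere is the contractile unit of striated muscle, bounded by Z-discs that anchor the thin actin filaments and centred on an M-band that holds the thick myosin filaments in register. Titin, the product of Ttn, runs from the Z-disc to the M-band as a scaffold and molecular spring and is among the largest proteins known. CCR4-NOT removes poly(A) tails from cytoplasmic mRNAs and is brought to some of them by proteins that bind the 3′ untranslated region (3′UTR), among them Pumilio proteins and, at AU-rich elements, Zfp36. The 9 genes are not all Z-disc or giant: Actn2, Nebl and Ldb3 encode Z-disc proteins, Xirp1 and Xirp2 actin-binding proteins of the intercalated disc, Mybpc3 a thick filament protein, and Myom1 and Myom2 M-band proteins. Their transcripts are not all long either. On the GRCm38 (mm10) annotation of GENCODE, with the longest coding sequence taken for each gene, the Ttn transcript has 106824 bases in 347 exons and ranks 2nd in length among 12032 tested genes with a coding transcript. Xirp2 follows with 11955 bases and rank 119, and Actn2 has 3013 bases, below the median of 3092 over the tested genes.

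The 3′UTRs of the 9 transcripts were searched on the transcript strand for a Pumilio motif (TGTANATA) and for AU-rich motifs (ATTTA and the longer TATTTAT, which contains it). These motifs were picked with earlier results of these data known, and a match is a description of the letters, not evidence of binding. The sequences below are shown because the Ttn 3′UTR, 1051 bases long on the minus strand of chromosome 2, held 3 Pumilio matches while the other 8 held 0. Capitals mark the motif, positions count from the first base after the stop codon to the first base of the motif, and the letters come from the GENCODE transcript.
Ttn 3′UTR, position 91: ttctgaccTGTAAATAtttttaag
Ttn 3′UTR, position 200: gacacacaTGTACATActgtatat
Ttn 3′UTR, position 209: gtacatacTGTATATAgccgggtt
The matches at positions 200 and 209 are separated by a single base. Of 9674 3′UTRs of tested genes with at least 300 bases, 570 (5.89%) held a Pumilio match in the first 300 bases and 6 (0.062%) held 3 or more, Ttn among them. Matches to ATTTA were most numerous in the long 3′UTRs of Nebl (4640 bases, 12 matches) and Ldb3 (2857 bases, 6 matches), with 1 each in Ttn and Myom1. Of the 9674 3′UTRs, 31.7% held ATTTA in the first 300 bases and 44.7% in the last 300, and 6.63% and 10.8% held TATTTAT. Of the 9 transcripts, 8 had a 3′UTR long enough for these windows. Among those 8, 1 held ATTTA in the first window and 2 in the last, and 0 held TATTTAT in either. Ldb3 also held 1 match to TATTTAT, at position 1239, and the other 8 held 0.
Ldb3 3′UTR, position 1239: ctttagaaTATTTATtgaaatag
Mybpc3, Myom2, Xirp1 and Xirp2 held none of the motifs, nor did Actn2, whose 3′UTR has 68 bases. Medians were taken over the 9674 3′UTRs of at least 300 bases, with and without a match in the first 300. The log2 fold change of Cnot3 RIP over control IgG RIP had a median of 0.13 with a Pumilio match and 0.05 without one. Ttn itself stood below 0 there, as given below. The same medians were 0.13 and 0.05 for TATTTAT, and 0.08 and 0.04 for ATTTA. For a match in the last 300 bases instead, the medians of that comparison were 0.18 and 0.04 for the Pumilio motif. They were 0.16 and 0.04 for TATTTAT, and 0.09 and 0.02 for ATTTA. Against Input, the Pumilio medians for the first 300 bases were 0.27 and 0.09 in the Cnot3 RIP, and 0.10 and -0.0042 in the control IgG RIP. The part of any motif was not tested.

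Total reads ran from 15713318 to 33479580 per library. The ribosomal RNA precursor Rn45s took 52.1% ± 1.39 of the reads in the Cnot3 RIP, 59.8% ± 0.609 in the control IgG RIP and 78.8% ± 0.647 in Input (SD, n = 2 each), so levels are given here as CPM, the reads of a gene as a share of the total scaled to the same sum in every library, after setting the libraries against each other by the trimmed mean of M-values (TMM), called scaled CPM. The heart label was checked by the level of 10 cardiomyocyte markers. They were 10 of 10 above 0 in every library, but so were the 6 fibroblast and 6 endothelial markers listed. Presence alone therefore does not check the label. In the Cnot3 RIP the cardiomyocyte markers summed to 29840 and 30819 scaled CPM. They summed to 41648 and 24746 in the control IgG RIP and to 23961 and 28818 in Input. In Input the fibroblast markers summed to 684 and 553 and the endothelial markers to 304 and 262. The mRNA of Cnot3 itself, the target of the antibody, had 9.19 and 14.3 scaled CPM in the Cnot3 RIP, 6.86 and 6.03 in the control IgG RIP and 5.54 and 5.79 in Input. In bulk tissue, fewer cardiomyocytes and less RNA per cardiomyocyte cannot be told apart.

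None of the 9 transcripts was called higher or lower in the Cnot3 RIP than in the control IgG RIP, at a limma p adjusted over all 13010 genes under 0.05. In the same comparison 1.81% of all tested genes were called, 1.54% higher and 0.277% lower. Their log2 fold changes lay between -0.51 for Ttn and 0.26 for Xirp1, with 8 of 9 below 0 (1 of 9 on deposited CPM with no further scaling) and a median of -0.16, against a median of -0.0029 over all tested genes. The 9 genes were chosen by name and share 1 pair of control libraries, so this median describes these libraries and has no test of its own. At an unadjusted limma p under 0.05 the count was 0 of 9 as well, where 17.3% of all genes passed, and edgeR's quasi-likelihood test and DESeq2 also called 0 of 9, beside 2.28% and 5.53% of all genes.

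Ttn, which lies on chromosome 2 at 76703980 to 76982547 on the minus strand, was among the 3 most abundant tested genes in every library. It had 43619 and 55403 scaled CPM in the Cnot3 RIP, 96880 and 50293 in the control IgG RIP, and 25096 and 26951 in Input, from at least 271738 reads a library. The 4 immunoprecipitated libraries were all above the 2 Input libraries, and the Cnot3 RIP values lay on both sides of the lower control IgG RIP value. The means were 49511 ± 8333 in the Cnot3 RIP, 73587 ± 32942 in the control IgG RIP and 26024 ± 1312 in Input (SD, n = 2 each). The log2 fold change of Cnot3 RIP over control IgG RIP was -0.51 with a 95% interval from -1.93 to 0.92 and a limma adjusted p of 0.787. That interval includes a fold of 0.263 and a fold of 1.89, so the direction for Ttn was not resolved by these libraries. Its standard error, 0.63, draws on limma's trend over abundance as well as on these libraries, and it moved with the setting. It was 0.29 on deposited CPM with no further scaling and 0.38 with Rn45s left out of the CPM and no TMM. With no filter on low values it was 3.86.

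**Figure D1:**
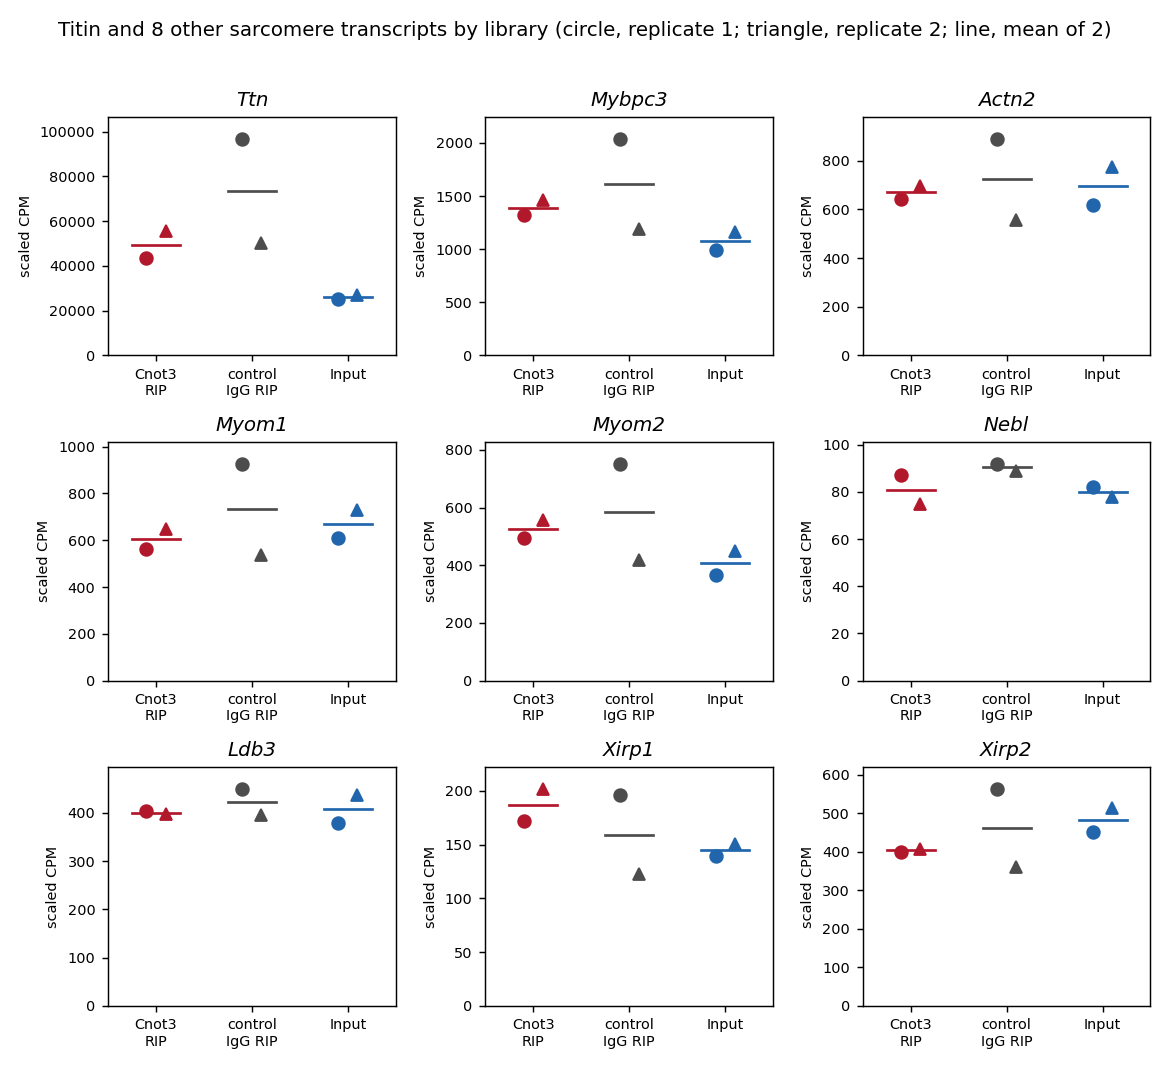
Scaled CPM (y axis, from 0, a separate scale for each gene) of the 9 transcripts in the Cnot3 RIP, control IgG RIP and Input (x axis), with circles for replicate 1, triangles for replicate 2 and a line at the mean of the 2. Control IgG RIP replicate 1 is the highest of the 6 libraries for 8 of the 9 genes, and the Input libraries of Ttn, at 25096 and 26951, lie below the other 4.

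Against Input, Ttn differed most among the 9 in both kinds of immunoprecipitate. The log2 fold change was 0.92 in the Cnot3 RIP over Input (95% interval -0.50 to 2.34, limma adjusted p 0.390) and 1.42 in the control IgG RIP over Input (95% interval 0.0018 to 2.85, limma adjusted p 0.200). Neither passed the threshold, although the values did not overlap. Such a lack of overlap was common: 30.6% of all tested genes were higher without overlap in the Cnot3 RIP than in Input, and 29.7% in the control IgG RIP than in Input. edgeR's quasi-likelihood test gave adjusted p of 0.160 in the Cnot3 RIP and 0.0758 in the control IgG RIP, while DESeq2 called Ttn higher than in Input in both, with adjusted p of 0.0429 in the Cnot3 RIP and 3.98e-04 in the control IgG RIP. The quasi-likelihood test called 6.19% of all genes higher in the Cnot3 RIP than in Input and 1.69% in the control IgG RIP than in Input. Of the genes to which DESeq2 gave an adjusted p, it called 9.53% higher in the Cnot3 RIP than in Input and 3.37% higher in the control IgG RIP than in Input.

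Mybpc3 (chromosome 2, 91118144 to 91136516, plus strand) encodes cardiac myosin-binding protein C, which lies along the thick filament and tunes the cross-bridges. It had 1317 and 1464 scaled CPM in the Cnot3 RIP, 2040 and 1193 in the control IgG RIP, and 992 and 1165 in Input. Like Ttn, it was above both Input libraries in all 4 immunoprecipitated libraries, by less. The log2 fold changes were -0.17 (SE 0.33) in the Cnot3 RIP over control IgG RIP, 0.37 in the Cnot3 RIP over Input and 0.54 in the control IgG RIP over Input, with limma adjusted p of 0.880, 0.519 and 0.352.

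Myom1 and Myom2 encode myomesin 1 and myomesin 2 (M-protein), which bind titin and myosin in the M-band. Myom1 (chromosome 17, 71002633 to 71126856, plus strand) had 564 and 646 scaled CPM in the Cnot3 RIP, 927 and 538 in the control IgG RIP, and 608 and 730 in Input. Myom2 (chromosome 8, 15057653 to 15133541, plus strand) had 496 and 556 scaled CPM in the Cnot3 RIP, 752 and 419 in the control IgG RIP, and 366 and 448 in Input. The groups of Myom1 overlapped in every comparison, while the Cnot3 RIP values of Myom2 lay above its Input values and its control IgG RIP values overlapped with both. The log2 fold change of Cnot3 RIP over Input was -0.14 (SE 0.32) for Myom1 and 0.37 (SE 0.32) for Myom2, and of Cnot3 RIP over control IgG RIP -0.23 and -0.10, with limma adjusted p of at least 0.490 in these 4 tests. The ratio of Myom2 reads to Myom1 reads, which no scaling of the libraries can move, was 0.879 and 0.860 in the Cnot3 RIP, 0.812 and 0.780 in the control IgG RIP, and 0.603 and 0.614 in Input. The 3 groups did not overlap in that ratio, and the ratio of Myom2 reads to those of a tested gene likewise kept the 3 groups apart for 6.03% of 12889 genes. Apart from the ratios of Ttn given below, such ratios were calculated for 3 pairs of the 9 genes, chosen after their values were seen, and were not tested. The pair of Mybpc3 over Actn2 had 2.05 and 2.10 in the Cnot3 RIP, 2.29 and 2.15 in the control IgG RIP, and 1.61 and 1.501 in Input, also without overlap, as did the ratio of Mybpc3 to 8.89% of the genes. Of the exonic bases of Myom1, 1.98% are shared with Myl12a on the opposite strand, and the strand setting of the counting is not given in the sources used here, so a small part of its reads could belong to that gene.

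Among the Z-disc genes, Actn2 encodes α-actinin 2, which cross-links actin filaments and anchors titin. Actn2 (chromosome 13, 12269426 to 12340760, minus strand) had 644 and 696 scaled CPM in the Cnot3 RIP, 891 and 555 in the control IgG RIP, and 617 and 776 in Input. Ldb3 (chromosome 14, 34526603 to 34588682, minus strand), which encodes the α-actinin-binding protein also called ZASP or Cypher, had 404 and 397 scaled CPM in the Cnot3 RIP, 449 and 395 in the control IgG RIP, and 378 and 437 in Input. For both genes the groups overlapped in all 3 comparisons. Their log2 fold changes of Cnot3 RIP over control IgG RIP were -0.07 (95% interval -0.76 to 0.62) for Actn2 and -0.08 (95% interval -0.62 to 0.47) for Ldb3, and those of Cnot3 RIP over Input -0.05 and -0.02. Limma adjusted p-values of these 4 tests were 0.935 or more.

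Nebl (chromosome 2, 17343909 to 17731464, minus strand) encodes nebulette, the cardiac relative of nebulin that ties actin to the Z-disc, and was the least abundant of the 9. It had 87.1 and 74.7 scaled CPM in the Cnot3 RIP, 91.9 and 89.0 in the control IgG RIP, and 82.3 and 77.8 in Input, from 891 to 2493 reads a library. It was the gene of the 9 whose values in the Cnot3 RIP lay without overlap below those in the control IgG RIP, as did 21.8% of all tested genes; 0 of the 9 lay without overlap above, as 24% of all tested genes did. The log2 fold change was -0.16 (SE 0.21, limma adjusted p 0.798). Against Input it was 0.01 in the Cnot3 RIP and 0.18 in the control IgG RIP.

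Xirp1 and Xirp2 encode proteins with Xin repeats that bind actin and sit at the intercalated discs joining cardiomyocytes. Xirp1 (chromosome 9, 120013755 to 120023598, minus strand) had 172 and 202 scaled CPM in the Cnot3 RIP, 196 and 123 in the control IgG RIP, and 139 and 151 in Input. Xirp2 (chromosome 2, 67446002 to 67526614, plus strand) had 400.4 and 406 scaled CPM in the Cnot3 RIP, 563 and 359.7 in the control IgG RIP, and 450.04 and 515 in Input. The related genes stood on opposite sides of Input in the Cnot3 RIP, Xirp1 above it and Xirp2 below it, each without overlap. Of all tested genes, 30.6% lay above and 26.9% below without overlap. On deposited CPM with no further scaling both genes stood above Input there, at log2 fold changes of 1.44 for Xirp1 and 0.83 for Xirp2. Xirp1 had the only positive log2 fold change of Cnot3 RIP over control IgG RIP among the 9, at 0.26 (SE 0.27, limma adjusted p 0.723). Against Input in the Cnot3 RIP the log2 fold change was 0.36 (limma adjusted p 0.427) for Xirp1 and -0.25 (limma adjusted p 0.606) for Xirp2. The ratio of Xirp1 reads to Xirp2 reads was 0.430 and 0.497 in the Cnot3 RIP, 0.348 and 0.342 in the control IgG RIP, and 0.309 and 0.293 in Input, again with no overlap between the groups and with no test. The ratio of Xirp1 reads to those of a tested gene kept the 3 groups apart for 11.2% of the genes.

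**Figure D2:**
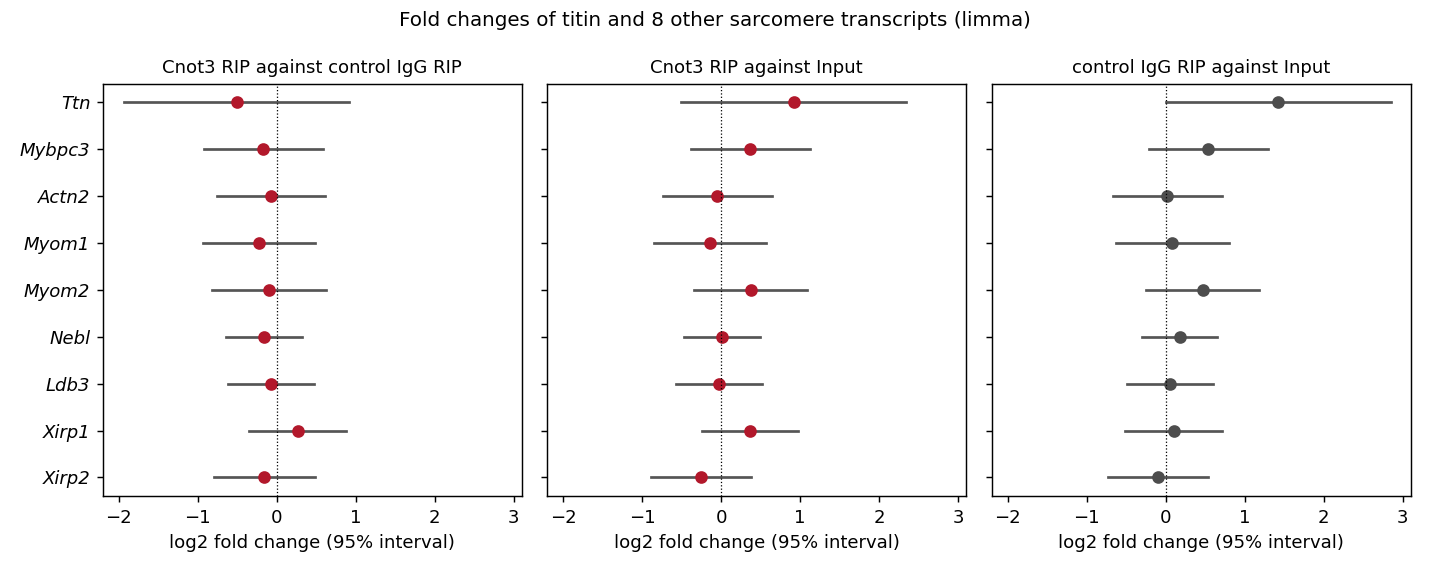
Log2 fold change (x axis) of each of the 9 transcripts (rows) in the 3 comparisons (panels), with the 95% interval of limma. In the Cnot3 RIP against control IgG RIP the interval of each gene includes 0; in the control IgG RIP against Input that of Ttn, 0.0018 to 2.85, starts just above 0.

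Counted over the 9, Cnot3 RIP lay without overlap above Input for 4 genes (Ttn, Mybpc3, Myom2 and Xirp1) and below it for 1 (Xirp2), where 30.6% of all tested genes lay above and 26.9% below. Control IgG RIP lay without overlap above Input for 3 genes (Ttn, Mybpc3 and Nebl) and below it for 0, where 29.7% lay above and 29.3% below. None of the 9 was called against Input by limma, where 8.32% of all genes were called in the Cnot3 RIP and 4.07% in the control IgG RIP; at an unadjusted limma p under 0.05 it was 0 of 9 in the Cnot3 RIP and 1 of 9, Ttn, in the control IgG RIP, beside 27.2% and 24.9% of all genes. The 2 comparisons share the Input libraries.

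For 7 of the 9 transcripts the replicates differed more in the control IgG RIP than in the Cnot3 RIP or Input, with Ldb3 and Nebl the exceptions. Replicate 1 of control IgG RIP was the highest of the 6 libraries for 8 of the 9 transcripts, and replicate 2 was the lowest for 4. The level in replicate 1 was 1.93 times that in replicate 2 for Ttn, 1.79 times for Myom2, 1.72 times for Myom1 and 1.71 times for Mybpc3. It was 1.60 times for Actn2, 1.59 times for Xirp1 and 1.57 times for Xirp2, but 1.14 times for Ldb3 and 1.03 times for Nebl. The summed cardiomyocyte markers, 41648 and 24746 in these replicates, were carried by Myh6 (23525 and 10972) and Ryr2 (5163 and 2531), the 2 of 10 that were over 1.5 times higher in replicate 1. The other 8 lay closer, such as Myl2 at 604 and 597, and 7 of 10 were higher in replicate 1. The 6 fibroblast markers were 6 of 6 higher in replicate 2 of the control IgG RIP, 4 of them by over 1.5 times, with Dcn at 103 and 104. Their sums were 888 and 434 scaled CPM in the Cnot3 RIP, 505 and 809 in the control IgG RIP, and 684 and 553 in Input. Of the 6 endothelial markers, 5 were higher in replicate 2 and Flt1 in replicate 1, with sums of 419 and 240 in the Cnot3 RIP, 283 and 406 in the control IgG RIP, and 304 and 262 in Input, and none of these 12 genes was at 0 in any library. The 12 skeletal muscle markers summed to 22.3 and 30.7 in the Cnot3 RIP, 57.0 and 27.5 in the control IgG RIP, and 18.6 and 23.5 in Input, with 0 to 3 of them at 0, and the largest part of that sum was Neb (12.6 and 22.0 in the Cnot3 RIP, 42.5 and 18.3 in the control IgG RIP, and 9.05 and 12.3 in Input). The 6 nuclear noncoding RNAs listed were 6 of 6 below 0 in the Cnot3 RIP against the control IgG RIP, at a median of -1.62 on the log2 scale. Of these RNAs, limma called 0, beside 1.54% of all genes called higher and 0.277% called lower. They were called lower in 3 cases by DESeq2, and in 2 by limma with the replicate number as a block. Against Input they were 6 of 6 above 0 in the control IgG RIP, with a median of 2.24 and 3 called higher (0 without control IgG RIP replicate 1, 1 without its replicate 2 or without Input replicate 2), and 4 of 6 above 0 in the Cnot3 RIP, with a median of 0.72 (-0.15 without Input replicate 2, and 6 of 6 above 0 on deposited CPM with no further scaling). Kcnq1ot1, an example chosen after its values were seen, had 191 and 81.2 scaled CPM in the Cnot3 RIP, 571 and 452 in the control IgG RIP, and 79.3 and 28.3 in Input. The part of these markers and nuclear RNAs in the levels of the 9 transcripts was not tested.

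The direction against the control antibody rested on that pair. Without control IgG RIP replicate 1, 6 of the 9 log2 fold changes of Cnot3 RIP over control IgG RIP were above 0, their median was 0.14, and that of Ttn was -0.06. Without control IgG RIP replicate 2, 9 of 9 were below 0, their median was -0.48, and that of Ttn was -0.98. No transcript of the 9 was called either way, at lowest limma adjusted p of 0.591 and 0.373, beside 0% of all genes called without replicate 1 and 0.894% without replicate 2. In the control IgG RIP over Input, the log2 fold change without replicate 1 and without replicate 2 was 0.93 and 1.90 for Ttn. It was 0.13 and 0.92 for Mybpc3, and 0.03 and 0.89 for Myom2, with a lone control IgG RIP library in each fit.

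Within each library, reads of Ttn can be set against those of the other 8 transcripts, and such a ratio does not depend on how libraries are scaled. It is a ratio of reads and not of molecules, since a longer transcript gives more reads. Ttn took 91.4% and 92.6% of the reads of the 9 in the Cnot3 RIP, 94.3% and 93.2% in the control IgG RIP, and 87.4% and 86.2% in Input. Of all reads other than Rn45s, the other 8 together took 1.27% and 1.19% in the Cnot3 RIP. They took 1.43% and 1.15% in the control IgG RIP, and 1.15% and 1.28% in Input, so their summed share overlapped between the groups. Ttn took 13.6% and 14.8% of those reads in the Cnot3 RIP and 23.4% and 15.8% in the control IgG RIP. In Input it took 7.97% and 8.03%. With Rn45s counted, its share overlapped between the Cnot3 RIP (6.39% and 7.23%) and the control IgG RIP (9.32% and 6.42%). There were 33.1 and 37.9 Ttn reads per Mybpc3 read in the Cnot3 RIP, 47.5 and 42.1 in the control IgG RIP, and 25.3 and 23.1 in Input. Per Actn2 read there were 67.8 and 79.6 in the Cnot3 RIP, 109 and 90.6 in the control IgG RIP, and 40.7 and 34.7 in Input.

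The ratio of Ttn was higher in the Cnot3 RIP than in Input, without overlap, for 8 of 8 partners, and higher in the control IgG RIP than in Input for 8 of 8. Measured the same way against each of 12889 tested genes, the ratio of Ttn was higher without overlap for 71.2% of them in the Cnot3 RIP over Input and for 83.5% in the control IgG RIP over Input, and lower for 5.31% and 1.89%. The ratio was lower in the Cnot3 RIP than in the control IgG RIP, without overlap, for 6 of the 8 partners, with Nebl and Ldb3 the exceptions, and for 40.4% of the tested genes, while it was higher without overlap for 0 of the 8 and for 2.87% of the tested genes. The 8 ratios share the Ttn reads of each library and are not independent of one another.

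**Figure D3:**
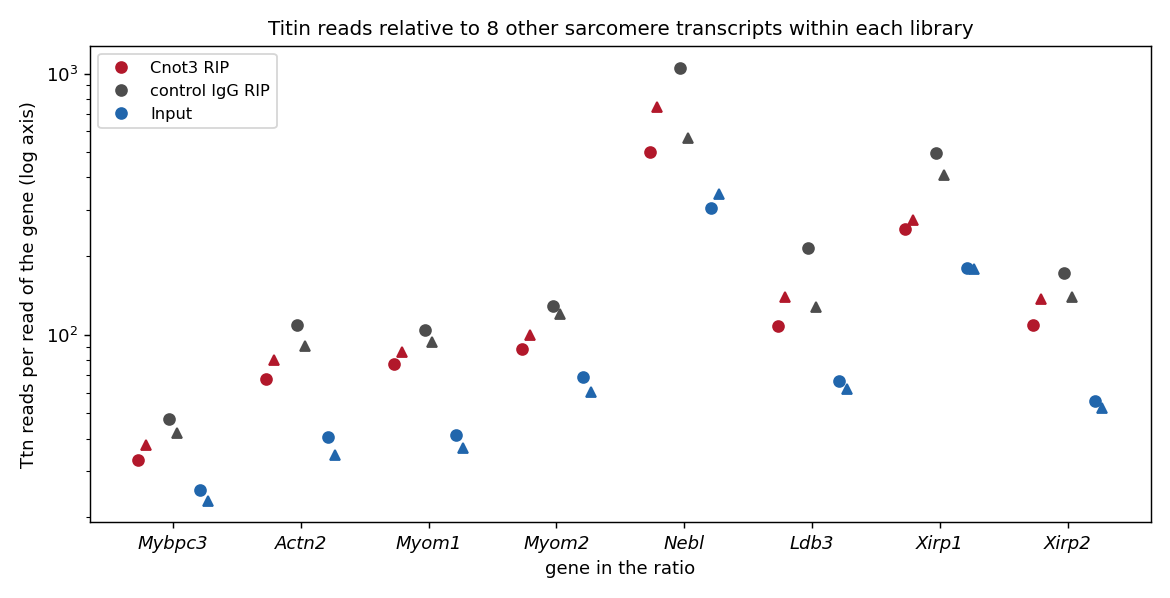
Reads of Ttn per read of each of the 8 other genes (y axis, log scale; genes on the x axis) in each library, with circles for replicate 1 and triangles for replicate 2. The Input libraries are the lowest for each of the 8 genes, and the Cnot3 RIP libraries lie below the control IgG RIP libraries for 6 of them.

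Levels were compared between genes per kilobase of the GENCODE transcript. In the Cnot3 RIP the order was Ttn (463 ± 78.0 scaled CPM per kilobase), Mybpc3 (334 ± 25.0), Actn2 (222 ± 12.2), Myom1 (107 ± 10.4), Myom2 (104 ± 8.40), Ldb3 (78.2 ± 0.984), Xirp2 (33.7 ± 0.359), Xirp1 (32.0 ± 3.60) and Nebl (10.02 ± 1.08; SD, n = 2 each). Neighbours overlapped there between Myom1 and Myom2 and between Xirp2 and Xirp1. In the control IgG RIP the order was the same, with Ttn at 689 ± 308, Mybpc3 at 388 ± 144 and Actn2 at 240.04 ± 78.8, and 5 of the 8 neighbouring pairs overlapped. In Input Mybpc3 (259 ± 29.3), Ttn (244 ± 12.3) and Actn2 (231 ± 37.3) overlapped with their neighbours in the order, and Myom2 (80.2 ± 11.4) overlapped with Ldb3 (79.6 ± 8.13). Which titin isoform the reads came from is not known from gene totals. On the next longest coding transcript, 101674 bases in 313 exons, Ttn would stand at 487 scaled CPM per kilobase in the Cnot3 RIP, 724 in the control IgG RIP and 256 in Input.

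Fold changes against Input went with transcript length over all tested genes. In the Cnot3 RIP over Input, the median log2 fold change was -0.69 for the 579 transcripts of up to 1 kilobase and 0.52 for the 276 longer than 10 kilobases, with 0.27 for those between 4 and 6 kilobases. In the control IgG RIP over Input the same medians were -0.67, 0.57 and 0.16, so the gradient was present without the Cnot3 antibody. In the Cnot3 RIP over control IgG RIP the medians of the 6 length classes lay between -0.06 and 0.09.

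Against Input, Ttn and Xirp2, the 2 transcripts of the 9 longer than 10 kilobases, lay on opposite sides of the middle 50% of that class. The middle 50% of the class ran from 0.26 to 0.73 in the Cnot3 RIP over Input, with Ttn above it at 0.92 and Xirp2 below it at -0.25. In the control IgG RIP over Input it ran from 0.30 to 0.76, with Ttn above it at 1.42 and Xirp2 below it at -0.10. Nebl, in the class from 6 to 10 kilobases with a median of 0.45, stood at 0.01 in the Cnot3 RIP over Input, and Actn2, in the class from 2 to 4 kilobases with a median of 0.0036, stood at -0.05. Between the replicates of control IgG RIP, the median log2 ratio of replicate 1 over replicate 2 was 0.11 in the longest class, against 0.95 for Ttn, 0.65 for Xirp2 and 0.05 for Nebl. In the class of up to 1 kilobase that median was -0.18. Between the replicates of the Cnot3 RIP the medians went the other way, from 0.24 in the shortest class to -0.14 in the longest. The part of transcript length in the values of single genes was not tested.

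**Figure D4:**
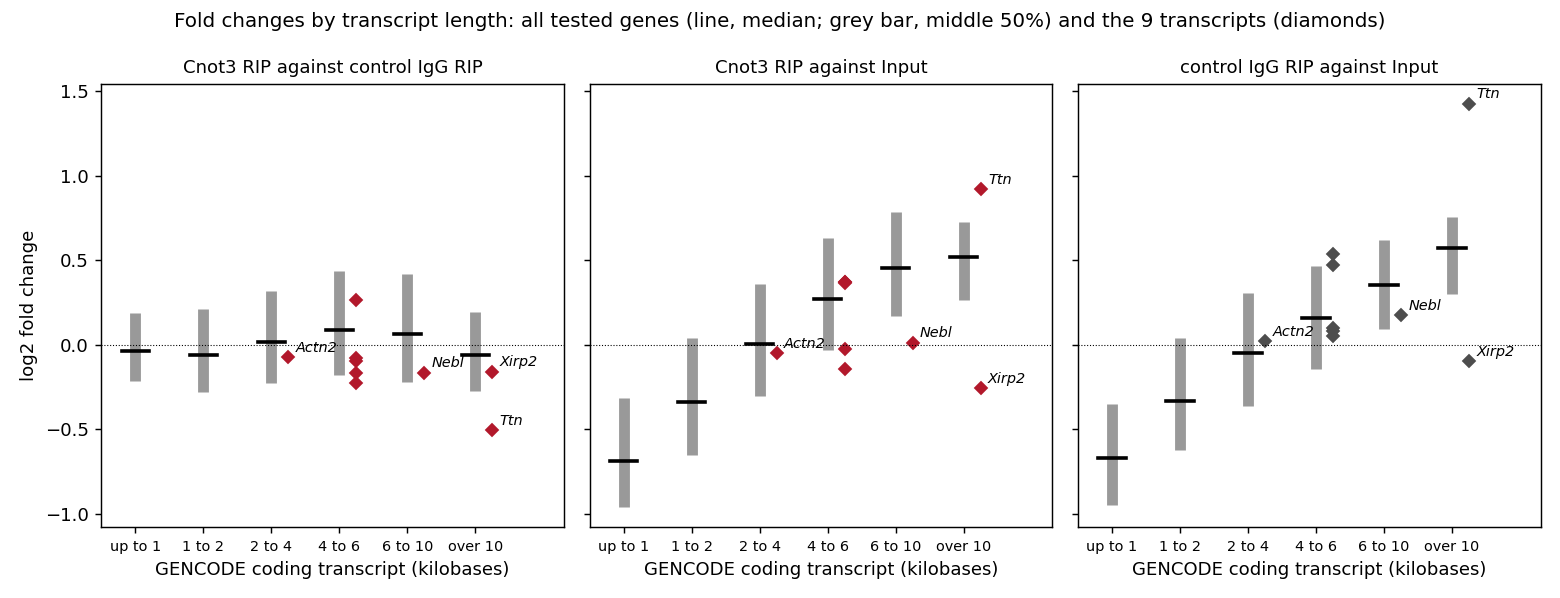
Log2 fold change (y axis) by length class of the GENCODE coding transcript in kilobases (x axis) in the 3 comparisons (panels), with a line at the median and a grey bar over the middle 50% of all tested genes in the class, and diamonds for the 9 transcripts. The medians climb with length in both comparisons with Input and not in the Cnot3 RIP against control IgG RIP, and in the longest class Ttn lies above the bar and Xirp2 below it in both comparisons with Input.

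How the libraries were scaled set the sign of several of these small differences. On deposited CPM with no further scaling, the median over all tested genes moved to 0.30 in the Cnot3 RIP over control IgG RIP, 1.02 in the Cnot3 RIP over Input and 0.70 in the control IgG RIP over Input. The median of the 9 was then 0.16, 1.09 and 0.86 in these comparisons, and 8 of 9 stood above 0 in the Cnot3 RIP over control IgG RIP, with Ttn at -0.19 and 0 of 9 called, beside 4.55% of all genes called higher and 0.254% called lower. All 9 were called higher than Input on that scale in both immunoprecipitates, as were 59.6% of all genes in the Cnot3 RIP and 33.7% in the control IgG RIP. Called lower on that scale were 0.0538% of all genes in the Cnot3 RIP and 0.0769% in the control IgG RIP, where the TMM-scaled values gave 5.86% higher and 2.47% lower in the Cnot3 RIP and 2.58% higher and 1.49% lower in the control IgG RIP. With Rn45s left out of the CPM and no TMM, 8 of 9 were below 0 in the Cnot3 RIP over control IgG RIP and Ttn stood at 1.27 in the control IgG RIP over Input, with 0 of 9 called in any comparison. Of all genes, 1.76% were then called higher and 0.223% lower in the Cnot3 RIP against control IgG RIP, 3.32% and 1.31% in the Cnot3 RIP against Input, and 0.907% and 0.699% in the control IgG RIP against Input. The sign of Ttn was the same under each scaling in each comparison.

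**Figure D5:**
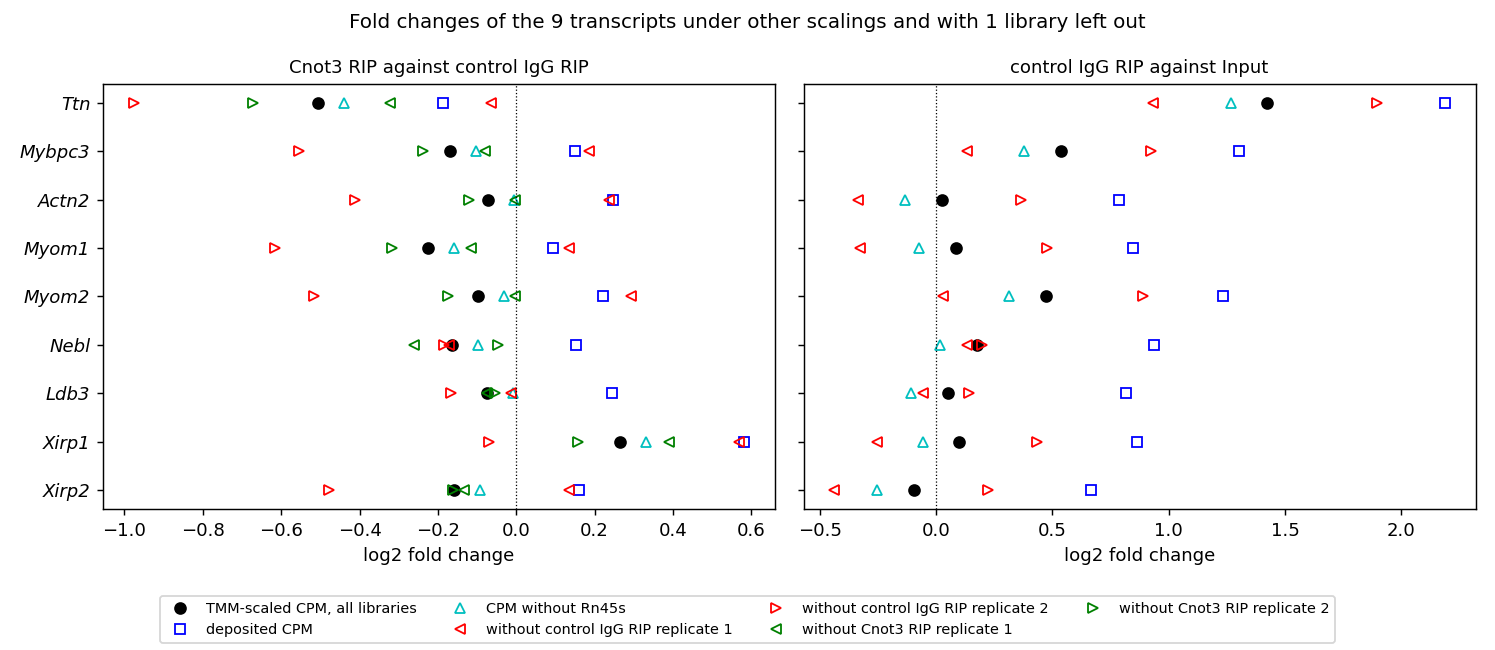
Log2 fold change (x axis) of the 9 transcripts (rows) in the Cnot3 RIP against control IgG RIP and in the control IgG RIP against Input (panels) under other scalings and with 1 library left out (symbols). In the first panel the values without control IgG RIP replicate 1 and replicate 2 have opposite signs for 6 of the 9 genes, and Ttn stays below 0 at every symbol.

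Other genes of the sarcomere were taken from lists written from textbook roles with earlier results of these data known, 83 genes of which 78 were tested. In the Cnot3 RIP against control IgG RIP 0 were called higher and 1 lower, with a median log2 fold change of -0.14 (0.17 on deposited CPM with no further scaling), close to the -0.16 of the 9. The gene called lower was Myh7, the slow β-myosin heavy chain, at 212 and 146 scaled CPM in the Cnot3 RIP and 666 and 408 in the control IgG RIP (limma adjusted p 0.0423 for a log2 fold change of -1.57, SE 0.31), and it lost the call without control IgG RIP replicate 1, without Cnot3 RIP replicate 2, without either Input library, with no filter on low values or with only 4 libraries in the fit. Reads of Myh7 and its close relative Myh6 can be hard to tell apart, and how the counting split them is not given in the sources used here. Among 10 tested genes of the M-band and its titin-kinase partners, 8 were below 0, 6 with Rn45s left out and no TMM and 2 on deposited CPM with no further scaling, and none was called.

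Among 37 other tested genes of the Z-disc, I-band and costamere, 11 were above 0 and 26 below in the Cnot3 RIP against control IgG RIP, with 0 called, and on deposited CPM with no further scaling 28 were above and 9 below. Neb, which encodes the giant nebulin of skeletal muscle, stood at -0.74 (limma adjusted p 0.412) from a mean of 17.3 scaled CPM in the Cnot3 RIP and 30.4 in the control IgG RIP. Flnc (filamin C) stood at -0.09, Cmya5 (myospryn) at -0.18 and Tcap (telethonin, the Z-disc cap of titin) at 0.20, none of them called.

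Against Input, 10 of the 78 genes were called lower and 0 higher in the Cnot3 RIP than in Input, beside 2.47% and 5.86% of all genes. They included Myoz2 (a calcineurin-binding Z-disc protein, log2 fold change -1.55, limma adjusted p 0.0120), Myl2 (-1.28) and Myl3 (-1.16), the ventricular myosin light chains, Csrp3 (muscle LIM protein, -1.09), Acta1 (skeletal α-actin, -1.03) and Murc (cavin 4, a muscle caveolar protein, -0.93). On deposited CPM with no further scaling Acta1 stood at 0.05 and Murc at 0.14. The 10 tested thin filament genes were 10 of 10 below 0 in both immunoprecipitates, with a median of -0.73 in the Cnot3 RIP and -0.67 in the control IgG RIP. On deposited CPM with no further scaling their medians were 0.32 and 0.10, beside 1.02 and 0.70 over all tested genes. With Rn45s left out and no TMM they were 10 of 10 below 0 in both, at medians of -0.84 and -0.82. Acta1 was the thin filament gene called lower in each immunoprecipitate on the TMM-scaled values. In the control IgG RIP, 5 of the 78 were called lower and 3 higher than in Input, beside 1.49% and 2.58% of all genes. Those lower were Myoz2 (log2 fold change -1.34, limma adjusted p 0.0256), the small heat shock proteins Hspb7 (-1.19) and Hspb8 (-1.08), Acta1 (-1.02) and Murc (-0.995). Each of these 5 was also called lower in the Cnot3 RIP than in Input, with Hspb7 at -1.08 and Hspb8 at -0.93. Those higher were Myh7 (log2 fold change 2.10, limma adjusted p 0.0128), Dmd (dystrophin, 1.56, limma adjusted p 0.0225) and Myh7b (1.42, limma adjusted p 0.0476). The log2 fold change of Ttn in that comparison, 1.42, was close to that of Myh7b, but its standard error was 0.63 against 0.33. For Ttn that standard error moved with the setting, as given above. With no filter on low values 3 of the 78 were called lower than Input in each immunoprecipitate, and DESeq2 called 10 lower in the control IgG RIP. On deposited CPM with no further scaling 0 were called lower in either, while 44 were called higher in the Cnot3 RIP and 33 in the control IgG RIP. Without either Input library, 0 of the 78 were called against Input in both immunoprecipitates. Without Cnot3 RIP replicate 2, 0 were called lower in it. In the control IgG RIP 0 were called in either direction without its replicate 1, and 0 lower without its replicate 2.

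The tested genes whose log2 profile over the 6 libraries lay closest to that of Ttn, by root mean square difference among 4712 genes with at least 10 scaled CPM on average, were Focad (0.15), Cad (0.19), Ranbp2 (0.19), Prkdc (0.19), Vps13b (0.20) and Dopey1 (0.20). Focad had 13.1 and 16.1 scaled CPM in the Cnot3 RIP, 26.5 and 14.1 in the control IgG RIP, and 9.14 and 8.88 in Input, the same order of libraries as Ttn apart from the 2 Input values. Transcript lengths of the first 5, from 5791 bases for Focad to 13757 for Vps13b, were all above the median of the tested genes. Among the other 8 sarcomere transcripts Mybpc3 (0.37) and Myom2 (0.40) were closest to Ttn and Xirp2 (0.66) was farthest.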

How the data were processed

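The authors deposited 1 table of 6 libraries in CPM per gene symbol. The columns sum to the same total when Rn45s is included. Per the submitters' processing notes, CASAVA 1.8, FastQC, Bowtie2 2.2.5, TopHat2 2.1.0, edgeR and the mm10 genome were used. The read counter, its annotation and its strand setting were not given in the sources used here. Sample labels gave the groups and replicate numbers.

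The CPM were whole multiples of 1 read in 100% of values within 0.01 read, so whole reads were recovered. Genes were kept with filterByExpr at a minimum count of 10, which left 13010 of 24421. CPM were scaled with TMM factors (edgeR 4.0.16), a pseudocount of 0.25 was added, and the log2 values entered limma 3.58.1 (trended empirical Bayes, two-sided) in R 4.3.3, with all 6 libraries in 1 fit of 3 group means. That left 3 residual and 6.24 prior degrees of freedom. Fold changes on this scale understate changes of low genes. P-values were adjusted with Benjamini-Hochberg over all tested genes and called under 0.05. With 2 libraries against 2, an exact permutation test cannot give a p under 0.333, so none was used for single genes. The fit was tested on simulated data. Alternatives were other scalings, pseudocounts of 1 and 0.05, no filter, edgeR's quasi-likelihood test and DESeq2 1.42.0 on the recovered reads, a fit of 4 libraries, the replicate number as a block, and each library left out in turn.

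Transcript lengths, exon counts and 3′UTR letters came from GENCODE vM21 (GRCm38), which gave a coding transcript for 92.5% of the tested genes. The 9 genes, the other lists and the motifs were chosen with earlier results of these data known. Of the other sarcomere genes, up to 6 called in each direction by smallest p were named, with Neb, Flnc, Cmya5 and Tcap named whatever their values; another gene of that rule is not reported here. Genes resembling Ttn were the 6 nearest by profile, without placeholder symbols.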

Additional observations from a re-analysis of the deposited data

How the results depend on the processing

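With 2 libraries a group, 1 library decided most counts. The smallest depth behind any of the 9 transcripts was 891 reads (Nebl in Input replicate 1). The cause of the changes below was not tested. Of the 9 transcripts, 0 were called in Cnot3 RIP against control IgG RIP under any alternative. Against Input the counts of 9 called higher in both immunoprecipitates came on deposited CPM with no further scaling, and DESeq2 called 1, Ttn, in each.

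On deposited CPM with no further scaling, these log2 fold changes reversed. In Cnot3 RIP over control IgG RIP they were Mybpc3 (0.15), Actn2 (0.25), Myom1 (0.093), Myom2 (0.22), Nebl (0.15), Ldb3 (0.24), Xirp2 (0.16), Cmya5 (0.14) and Flnc (0.23). In Cnot3 RIP over Input they were Actn2 (1.03), Myom1 (0.94), Ldb3 (1.06), Xirp2 (0.83), Acta1 (0.049), Hspb8 (0.15), Murc (0.14) and Tcap (0.28), and in control IgG RIP over Input Xirp2 (0.67). With Rn45s left out and no TMM, Nebl reversed to -0.080 in Cnot3 RIP over Input, and Actn2 (-0.14), Myom1 (-0.075), Ldb3 (-0.11) and Xirp1 (-0.058) in control IgG RIP over Input. Nebl in Cnot3 RIP over Input was also -0.011 with DESeq2 and -0.058 with 4 libraries in the fit.

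Where 1 library was left out, the lone library of its group was assumed to vary like the other groups. Leaving out 1 library at a time, Cnot3 RIP over control IgG RIP ranged from -0.55 to 0.19 for Mybpc3, -0.41 to 0.24 for Actn2, -0.62 to 0.14 for Myom1, -0.52 to 0.29 for Myom2, -0.069 to 0.57 for Xirp1, -0.48 to 0.13 for Xirp2, -0.72 to 0.33 for Cmya5, -0.38 to 0.17 for Flnc and -0.41 to 0.78 for Tcap. Cnot3 RIP over Input ranged from -0.26 to 0.070 for Actn2, -0.093 to 0.12 for Nebl, -0.18 to 0.034 for Ldb3 and -0.21 to 0.40 for Cmya5. Control IgG RIP over Input ranged from -0.34 to 0.36 for Actn2, -0.33 to 0.47 for Myom1, -0.072 to 0.14 for Ldb3, -0.25 to 0.43 for Xirp1, -0.44 to 0.22 for Xirp2 and -0.28 to 0.81 for Cmya5.

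Among all genes, 200 were called higher and 36 lower with Cnot3 RIP set against control IgG RIP, 762 and 321 in Cnot3 RIP against Input, and 336 and 194 in control IgG RIP against Input. In the first comparison the number higher was 592 on deposited CPM, 26 with no filter, 563 with DESeq2, 95 with 4 libraries and 0 to 1043 with 1 library left out. The number lower was 65 with a pseudocount of 1, 1 with no filter, 157 with DESeq2, 17 with 4 libraries and 0 to 263 with 1 library left out; without control IgG RIP replicate 1 it was 0 in both directions. In Cnot3 RIP against Input it was 7752 higher and 7 lower on deposited CPM, 432 and 171 with Rn45s left out, and 423 and 137 with no filter. DESeq2 called 510 lower there, and with 1 library left out it was 10 to 1461 higher and 2 to 509 lower. In control IgG RIP against Input it was 4383 higher and 10 lower on deposited CPM, 118 and 91 with Rn45s left out, 220 and 119 with edgeR's quasi-likelihood test, and 571 and 431 with 4 libraries. It was 104 lower there with no filter, and 16 to 509 higher and 3 to 386 lower with 1 library left out.

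Of the 78 other sarcomere genes, called in Cnot3 RIP against control IgG RIP were 3 higher on deposited CPM, 2 higher and 3 lower with DESeq2, 0 lower with no filter or with 4 libraries, and 0 to 4 higher and 0 to 3 lower with 1 library left out. In Cnot3 RIP against Input it was 44 higher and 0 lower on deposited CPM, 2 higher with DESeq2, 3 lower with no filter, and 0 to 3 higher and 0 to 12 lower with 1 library left out. In control IgG RIP against Input it was 33 higher and 0 lower on deposited CPM, 3 lower with no filter or with edgeR's quasi-likelihood test, 10 lower with DESeq2, 5 higher and 8 lower with 4 libraries, and 0 to 3 higher and 0 to 6 lower with 1 library left out.

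Libraries with the same replicate number deviated together in 1 of the 3 pairs of groups: the correlation of their deviations was -0.32 between Cnot3 RIP and control IgG RIP, 0.34 between Cnot3 RIP and Input, and -0.33 between control IgG RIP and Input, over 13010 genes. The numbers were therefore not taken to pair the libraries. With the replicate number as a block, 0 of the 9 transcripts were called in any comparison. The block gave 93 genes lower with Cnot3 RIP set against control IgG RIP, 166 lower in Cnot3 RIP against Input and 77 lower in control IgG RIP against Input. It left 2 of the other sarcomere genes lower in Cnot3 RIP against Input and 1 lower in control IgG RIP against Input.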
